A study of Mus musculus with 3 samples.

Results

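The genes described here are 4 receptor tyrosine kinases, Egfr, Met, Axl and Fgfr1, and 6 growth factors, Hbegf, Areg, Ereg, Hgf, Gas6 and Fgf7. They were chosen by name, as receptors and ligands known from work on resistance to inhibitors of the MAP kinase pathway. The choice was made with earlier results of these data known. The genes are 10 of the 36530 features in the count tables. Their messenger RNA was counted cell by cell in 3 melanomas of mice: an untreated tumor, a tumor regressed under vemurafenib, and a tumor progressed under the same drug. Vemurafenib, given by mouth, inhibits the mutant Braf kinase. Each tumor gave 1 droplet library of transcript ends, and each cell carries the cluster name that the study's authors deposited. All 3 tumors came from mice on a C57BL/6J background that form melanomas at the site where the skin was painted with 4-hydroxytamoxifen. Tamoxifen activates a Tyr-driven CreER recombinase, which is made in melanocytes, and the recombinase switches on Braf V600E. The study also bred these mice with a tdTomato reporter, and the tables hold tdTomato and tWPRE counts, but the labels do not say from which strain each tumor was taken. They give no time under treatment either. The treated tumor that had not progressed was a sample of 12 days of vemurafenib by the study's own naming.

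Receptor tyrosine kinases sit in the cell membrane and signal to the MAP kinase and PI3 kinase pathways when a ligand joins them in pairs. The EGF family ligands Hbegf, Areg and Ereg are made as membrane proteins and are cut loose to bind Egfr. Hgf is secreted, often by fibroblasts, and is activated by cleavage before it binds Met, and Gas6 binds Axl and its relatives Tyro3 and Mertk. Fgfr1 is the FGF receptor typical of mesenchymal cells, whereas Fgf7, made by fibroblasts, is known to act on the epithelial form of Fgfr2. In cultured melanoma cells these receptors are known as routes by which signaling can return while Braf is blocked, either because tumor cells make more receptor or because neighboring cells supply the ligand.

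The comparison was therefore made between the cells that held the receptors and the cells that held the ligands. Tumor cells are the clusters Tumor1 and Tumor2, with 48, 410 and 160 cells in the untreated, regressed and progressed tumor. Stroma is Stroma1 to Stroma10, with 2628, 1918 and 3422 cells, and immune cells number 1053, 957 and 683. Each captured RNA molecule carries a random tag, the unique molecular identifier (UMI), so that its copies count a single time. Levels are UMIs of a gene per 1000000 UMIs of a cell group (CPM), with exact Poisson 95% intervals in parentheses. Where 3 values follow each other, they are given for the untreated, regressed and progressed tumor in that order. With 1 tumor per group there is no test, so a difference between tumors cannot be told apart from a difference between animals. A ratio of tumors is described as past the fold rule when it is at least 2-fold, its exact 95% interval excludes no difference, and the pair of tumors held at least 10 UMIs of the gene. All intervals cover counting error only.

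The regressed library stands apart. The median UMIs per cell were 4496, 2658 and 4566 over all cells, and 4078, 832 and 4655.5 in tumor cells. Stroma10 made up 1537 of its 1918 stromal cells but 4 untreated and 7 progressed ones, and Tumor2 made up 349 of its 410 tumor cells but 4 in each of the other tumors. Xist stood at 0.403 CPM there against 1494 and 1735 CPM, and 4 Y-linked genes together at 220 against 0.946 and 1.19 CPM, so its mouse differed in sex from the other two. The tables name cells by running IDs, not barcodes, so barcodes shared between libraries could not be counted, and 0 cell names were shared.

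Marker genes fit most cluster names that matter here. The summed tumor-cell markers stood at 3789, 3346 and 5207 CPM in tumor cells, against 43.4, 84.5 and 45.1 CPM in stroma. Endothelial markers reached 1866, 1926 and 1726 CPM in the Bloodvessel cluster and at most 88.4 CPM in stroma. Monocytes2 goes against its name, since markers of dendritic cells summed to 15689, 13764 and 15020 CPM there and those of macrophages and monocytes to 1581, 1227 and 1596 CPM. The 2 clusters left undefined held keratinocyte markers, at 21917, 21387 and 16982 CPM in Undefined1 and at 29550, 28749 and 27920 CPM in Undefined2. They keep their deposited names below.

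Most of the 10 genes were counted outside the tumor cells. Stroma held 89.1%, 83.6% and 86.6% of the Egfr UMIs, and it held 95.6%, 93.6% and 95.9% of those of Fgf7. Of the Axl UMIs it held 87.1%, 74.5% and 78.3%, while stromal cells were 64.2%, 51.5% and 70.6% of all cells. Hbegf had a larger share in tumor cells than Egfr, Fgf7 and Axl did. They were 48 of 4095, 410 of 3726 and 160 of 4849 cells and held 14.5%, 38.4% and 32.9% of the Hbegf UMIs. Clusters outside the 3 compartments held more of the Hbegf UMIs in every tumor, at 62.1%, 42.3% and 57.5%. The immune cells held 66.7%, 79.2% and 28.1% of the Areg UMIs and 59.9%, 61.2% and 14.0% of the Met UMIs. In the progressed tumor the larger shares of these genes, 66.7% for Areg and 75.6% for Met, lay in clusters outside the 3 compartments.

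**Figure D1:**
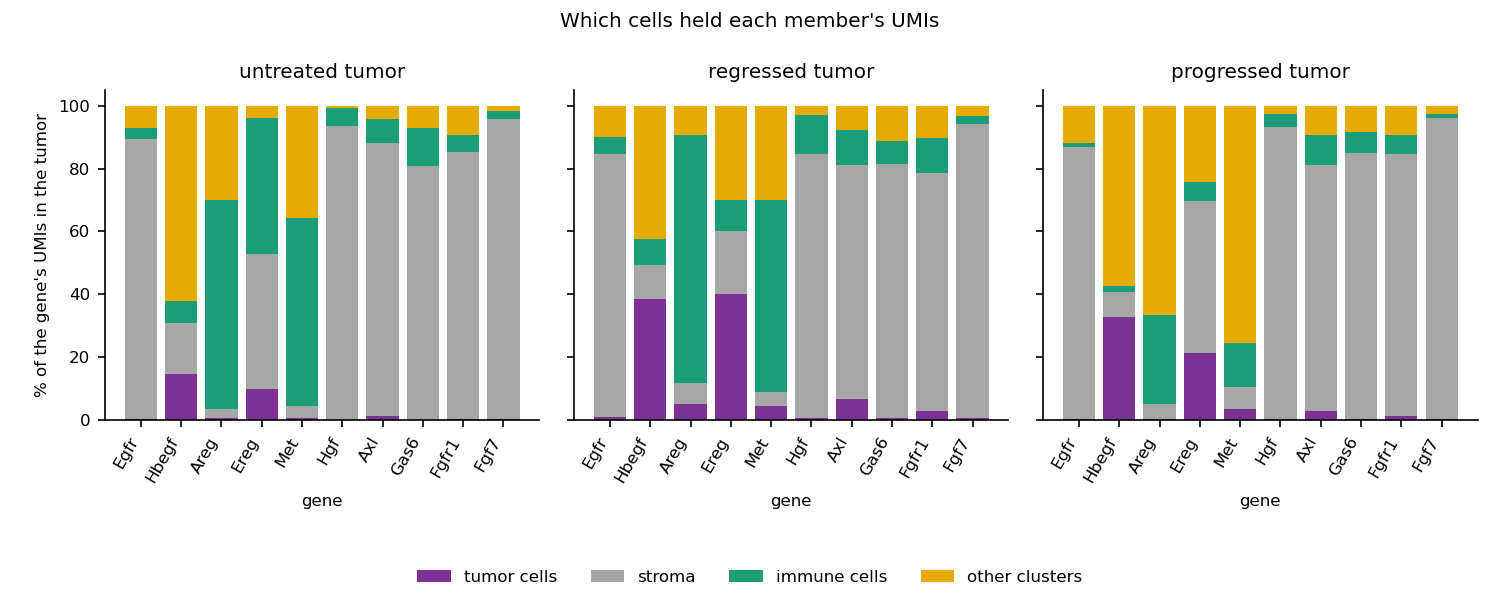
Share of each gene's UMIs (percent, stacked bars) that came from tumor cells, stroma, immune cells and other clusters, for each of the 3 tumors. Stroma holds most UMIs of Egfr, Hgf, Axl, Gas6, Fgfr1 and Fgf7, whereas Hbegf, Areg and Met lie largely in tumor, immune or other clusters.

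Egfr, the receptor of the EGF family ligands, lay in stroma and was scarce in tumor cells. In the count tables it held 4889 UMIs, and its gene lies at chr11:16752203-16913907 of GRCm38. Stroma stood at 87.4 CPM (82.6 to 92.4), 160 (151 to 171) and 112 (107 to 117). Tumor cells stood at 15.2 CPM (4.13 to 38.8), 21.8 (11.6 to 37.3) and 5.96 (1.93 to 13.9), from 4, 13 and 5 UMIs. Stromal levels were thus 5.77-fold, 7.36-fold and 18.8-fold those of tumor cells, each with an interval clear of no difference. As a measure of free stromal RNA in droplets, Col1a1, Col1a2 and Dcn together reached 8.20%, 9.76% and 10.3% of their stromal level in tumor cells, and Egfr reached 17.3%, 13.6% and 5.31% of its own. The highest levels were in Stroma8 of the untreated and progressed tumors, at 222 and 189 CPM, with intervals that overlapped those of Stroma5 at 139 and 127 CPM. In the regressed tumor Stroma10 led at 167 CPM and overlapped Stroma9 at 138 CPM.

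Between tumors, stromal Egfr in the regressed tumor was 1.84-fold the untreated level (log2 0.88), short of the fold rule. With each cell thinned to 1000 UMIs, Egfr was detected in 8.31%, 15.0% and 10.5% of stromal cells, against 0%, 3.57% and 0% of NK/T cells, which should lack the gene. Unthinned, these shares were 32.7%, 38.3% and 40.2% of stromal and 2.50%, 8.40% and 2.44% of NK/T cells, whose median depths were 3380.5, 2737.5 and 3122 UMIs. In tumor cells Egfr of the progressed tumor was 3.66-fold below the regressed level (log2 -1.87, -3.71 to -0.29), from 5 and 13 UMIs. The regressed level was 24.7 CPM in Tumor2, which numbered 349 regressed but 4 progressed cells. In Tumor1 Egfr stood at 13.2 CPM in the regressed and 6.04 CPM in the progressed tumor, and it did not pass the rule there.

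Hbegf, a membrane-anchored ligand of Egfr and Erbb4, was the member with the clearest level in tumor cells and the one that was highest there at progression. Tumor cells stood at 269 CPM (210 to 339), 181 (149 to 219) and 659 (605 to 716), while stroma stood at 5.61, 4.83 and 7.50 CPM and immune cells at 7.78, 7.97 and 10.3 CPM. The progressed level lay above both other levels. The progressed tumor was 2.45-fold above the untreated one (log2 1.29, 0.93 to 1.67) and 3.63-fold above the regressed one (1.86, 1.56 to 2.17), and both passed the fold rule. The regressed tumor was at 0.674-fold of the untreated (log2 -0.57, -1.02 to -0.12), short of it.

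Hbegf was detected in 20 of 48 untreated tumor cells, 67 of 410 regressed and 106 of 160 progressed, or 41.7%, 16.3% and 66.2%. At 1000 UMIs per cell the shares were 13.3%, 15.1% and 38.7%, against 0%, 1.34% and 0% of NK/T cells and, unthinned, 0%, 2.52% and 2.44% of them. The UMIs were unevenly spread over cells. The 5 richest cells held 71.8% of the untreated UMIs, with 23 in 1 cell, and 23.5% of the progressed UMIs, with up to 39 in 1 cell. Leaving out the deepest 5% of cells, the progressed against untreated ratio fell to log2 0.95 (0.58 to 1.35), just under the fold rule, and the regressed against untreated ratio to -1.08 (-1.57 to -0.59), past it. The progressed against regressed ratio passed under the same setting at 2.04. Within Tumor1, which all tumors share, the levels were 299, 258 and 664 CPM, and the progressed tumor was higher by log2 1.15 (0.78 to 1.54) than the untreated and by 1.36 (0.89 to 1.87) than the regressed one, comparisons that 8.68% and 13.7% of features passed. Leaving out the deepest 5% of cells there too, the first was 0.79 (0.42 to 1.19), short of the rule, and the regressed tumor was lower than the untreated by -1.24 (-2.06 to -0.48), past it. Keratinocyte markers in tumor cells stood at 136, 829 and 688 CPM. Undefined2, the cluster richest in those markers, held Hbegf at 278 CPM in the progressed tumor. The part of these markers' cells in the tumor-cell Hbegf values was not tested.

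Hbegf also differed in clusters outside the tumor cells. In Bloodvessel it stood at 60.3 CPM, 107 and 732, from 47, 23 and 115 UMIs in 74, 48 and 28 cells. The progressed level was 12.1-fold the untreated (log2 3.60, 3.10 to 4.12) and 6.83-fold the regressed (2.77, 2.12 to 3.48), where 8.48% and 13.4% of features passed. Keratinocyte markers in Bloodvessel stood at 114, 937 and 204 CPM. The progressed Hbegf level came from 14 of 28 cells, and 5 of them held 80.0% of the UMIs. In Undefined2 it stood at 164, 73.3 and 278 CPM, with the regressed tumor at log2 -1.16 against the untreated and the progressed at 1.92 against the regressed. Those comparisons passed for 18.2% and 12.4% of all features of this cluster, and the first was lost at 1000 UMIs per cell (-1.01, -2.60 to 0.45). Undefined1 had the same order, at 69.6, 21.0 and 120 CPM, with ratios of -1.73 and 2.52 that were both short of the rule in cells thinned to 1000 UMIs, beside 12.8% and 14.5% of features past it.

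Areg, the amphiregulin gene at chr5:91139599-91148432, encodes a soluble Egfr ligand that lymphocytes and myeloid cells can make. Of its 1051 UMIs, tumor cells held 3, 6 and 2. The promoter windows of Areg and Met are shown because both genes were lower in Monocytes1 of the progressed tumor. Of the 7 members whose windows were searched, these 2 held a searched motif in the 250 bases before the gene start, a different one in each. Any link between these motifs and the Monocytes1 levels was not tested. The stretch below is chr5:91139349-91139598 on the plus strand, from RefSeq GRCm38.p6, and capitals mark a CRE, the motif TGACGTCA known for binding cAMP-response factors, that begins 61 bases before the start.
Areg: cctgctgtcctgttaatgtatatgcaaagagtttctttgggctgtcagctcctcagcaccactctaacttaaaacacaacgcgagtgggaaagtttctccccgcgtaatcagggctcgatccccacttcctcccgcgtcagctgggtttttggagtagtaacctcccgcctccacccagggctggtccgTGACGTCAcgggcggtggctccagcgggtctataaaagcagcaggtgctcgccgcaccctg
A CRE stood in 1.55% of the 32851 promoter windows of this length, 508 in all. The match describes the letters of this window and is not a measured site.

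In immune cells Areg stood at 75.1 CPM (67.3 to 83.5), 32.9 (26.6 to 40.2) and 39.5 (32.8 to 47.3). The untreated interval lay above the other intervals. The regressed tumor was 2.28-fold lower than the untreated (log2 -1.19, -1.53 to -0.86), and the progressed was 1.90-fold lower (-0.93, -1.24 to -0.62). The first ratio fell short of the rule, at -0.94, without Monocytes2, and the second passed it with TMM scaling, at -1.20.

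The NK/T cells and the myeloid clusters had different orders of Areg. In Monocytes1 it stood at 126, 6.07 and 20.1 CPM, from 142, 5 and 5 UMIs, which made the treated tumors lower by log2 -4.38 (-6.02 to -3.12) and -2.65 (-4.30 to -1.40), past the rule for 13.8% and 7.94% of features. The untreated UMIs came from 15 of 225 cells, and 1 cell held 37. Monocytes2 held 35 UMIs (82.0 CPM), 0 and 15 (14.8 CPM), at least 11.9-fold lower in the regressed tumor against a floor of 3 UMIs, and lower by log2 -2.47 in the progressed one, beside 14% and 6.64% of features past the rule. Neutrophils held 70.3 CPM in the untreated and 3.36 in the regressed tumor, from 107 UMIs and 1, where 24.7% of features passed, and the progressed tumor had 4 neutrophils. The shares of cells with an Areg UMI in Monocytes1 were 6.67%, 2.03% and 1.89%, and 5.02%, 0.543% and 2.04% after thinning. Markers of neutrophils in Monocytes1 were also lower in both treated tumors, at 3298, 898 and 104 CPM. They were lowest in the progressed tumor, whereas Areg was lowest in the regressed one, and their part in the result was not tested. NK/T cells stood at 301 CPM (222 to 399), 120 (96.3 to 148) and 516 (416 to 633), so the regressed level was lowest and lay 2.10 on the log2 scale (1.67 to 2.54) below the progressed, a comparison that 8.67% of features passed. The share of NK/T cells with a UMI was 22.5%, 11.3% and 34.1%, or 12.8%, 6.25% and 19.5% at 1000 UMIs per cell. Macrophages held an Areg UMI in 1.28%, 0.699% and 1.77% of cells.

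Undefined2 showed yet another order of Areg, at 135, 7.54 and 115 CPM from 136, 7 and 240 UMIs. The regressed tumor was lower than the untreated by log2 -4.16 (-5.50 to -3.08), and the progressed tumor was higher than the regressed by 3.93 (2.86 to 5.26). The untreated and progressed levels differed by 0.23 on the log2 scale, progressed lower. Areg and Hbegf were thus both lowest in the regressed tumor in this keratinocyte-marker cluster.

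**Figure D2:**
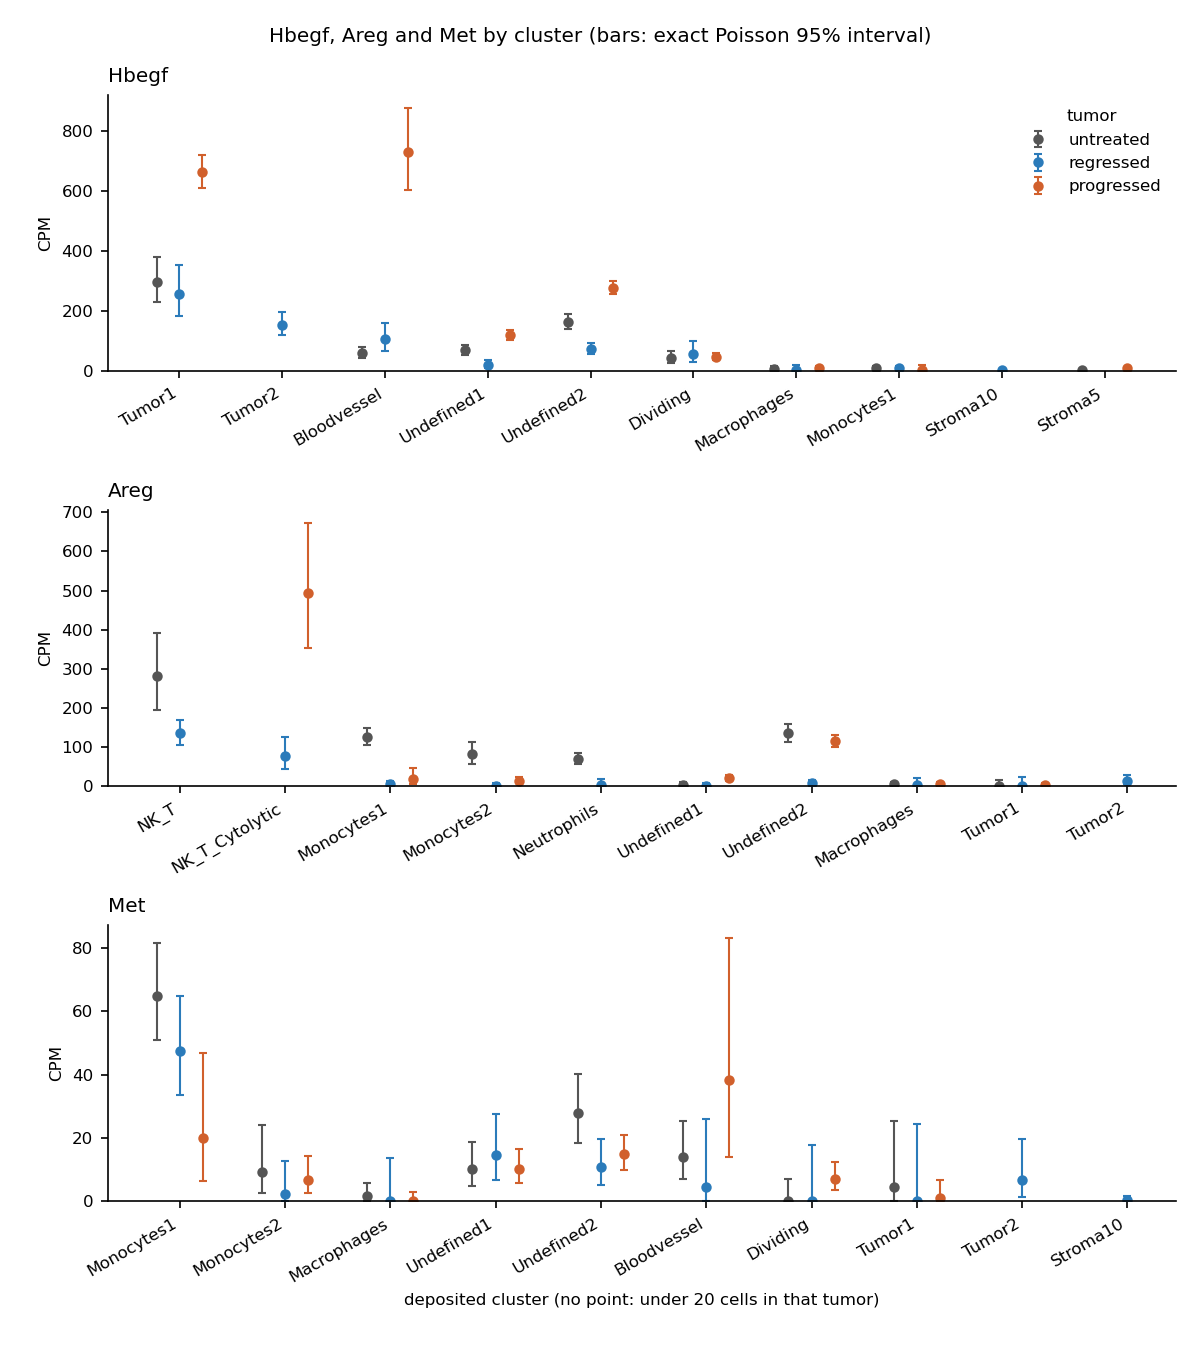
CPM of Hbegf, Areg and Met (one panel each) in clusters of the 3 tumors, with exact Poisson 95% intervals as bars. Hbegf in Bloodvessel is highest in the progressed tumor at 732 CPM, and Areg in Monocytes1 is highest in the untreated tumor at 126 CPM.

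Ereg, the epiregulin gene at chr5:91074617-91093649 and a further Egfr ligand, was near the limit of detection with 104 UMIs in all. Tumor cells stood at 18.9 CPM (6.15 to 44.2), 13.4 (5.80 to 26.4) and 8.34 (3.35 to 17.2), from 5, 8 and 7 UMIs, and no difference was detectable at this depth. Immune cells held 22, 2 and 2 UMIs (4.89, 0.693 and 0.665 CPM), and both treated tumors were lower, by log2 -2.82 (-5.95 to -0.79) and -2.88 (-6.01 to -0.85). With shared clusters at equal weight both calls were lost, at -1.78 (-4.91 to 0.25) and -1.68 (-4.84 to 0.41), and the second also without Monocytes2, at -2.06 (-5.22 to 0.02). Monocytes1 held 11 of the untreated UMIs and 0 in each treated tumor. The 22 untreated stromal UMIs all lay in Stroma1, in 7 cells, and 1 cell held 9.

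Met, the Hgf receptor at chr6:17463349-17573980, had few UMIs in tumor cells and was found in monocytes and in clusters outside the 3 compartments. Tumor cells held 1, 3 and 3 UMIs (3.79, 5.03 and 3.57 CPM), in 1 of 48, 3 of 410 and 2 of 160 cells. Stroma held 5, 3 and 6 UMIs. Monocytes1 stood at 65.0 CPM (50.9 to 81.7), 47.3 (33.7 to 64.7) and 20.1 (6.53 to 46.9). Met was seen in 20.9%, 14.7% and 7.55% of these cells, or 6.85%, 6.52% and 2.04% at 1000 UMIs, whereas NK/T cells held 0 UMIs in 40, 238 and 41 cells. In the regressed tumor those 238 cells allow at most 1.26% with a UMI, the share that 3 cells would give.

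Over all immune cells Met stood at 18.2, 14.2 and 3.99 CPM, from 82, 41 and 12 UMIs. The progressed tumor was lower than the untreated by log2 -2.19 (-3.20 to -1.31) and lower than the regressed by -1.83 (-2.90 to -0.88). Monocytes1 numbered 225, 197 and 53 cells, so its weight among the immune cells differed between the tumors. With the shared clusters at equal weight the progressed against regressed ratio was -0.88 (-1.94 to 0.08), short of the rule. Within Monocytes1 the progressed tumor was lower than the untreated by -1.69 (-3.36 to -0.40), from 5 and 73 UMIs, and the call was lost at 1000 UMIs per cell (-1.84, -7.23 to 0.85). Undefined2 held Met at 27.8, 10.8 and 14.8 CPM. Bloodvessel held it at 14.1 CPM (7.05 to 25.3), 4.66 (0.12 to 26.0) and 38.2 (14.0 to 83.2), from 11, 1 and 6 UMIs, in 14.9%, 2.08% and 17.9% of its cells.

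The Met promoter window, shown beside that of Areg, holds a match to the AP-1 motif TGANTCA, known for binding Fos and Jun factors. It is chr6:17463707-17463956 on the plus strand in GRCm38.p6, 250 bases before a RefSeq start within the annotated span, and capitals mark TGAGTCA, which begins 54 bases before that start.
Met: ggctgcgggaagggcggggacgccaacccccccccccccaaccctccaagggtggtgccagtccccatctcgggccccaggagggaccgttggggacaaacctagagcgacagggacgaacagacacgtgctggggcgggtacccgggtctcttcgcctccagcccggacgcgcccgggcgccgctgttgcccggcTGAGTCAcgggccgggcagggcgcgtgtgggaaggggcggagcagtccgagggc
AP-1 letters stood in 6.75% of the windows, 2217 in all. Both motifs read the same on either strand and do not overlap each other. The windows of Egfr, Hgf, Axl, Gas6 and Fgf7 held neither, and windows of Hbegf, Ereg and Fgfr1 were not used here. A window without a match says only that these letters are not in its 250 bases.

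Hgf, the ligand of Met at chr5:16553495-16619439, lay on the other side of that pair, in stroma. Stroma stood at 63.4 CPM (59.3 to 67.7), 50.0 (44.7 to 55.7) and 32.0 (29.4 to 34.8), an order in which no intervals overlapped. Tumor cells held 0, 2 and 2 UMIs, so stromal Hgf was at least 5.57-fold that of untreated tumor cells. The progressed stroma was 1.98-fold lower than the untreated (log2 -0.99, -1.14 to -0.83), short of the rule.

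The lower stromal Hgf of the progressed against the untreated tumor was not seen within Stroma2, Stroma4 or Stroma6. Stroma2, the cluster with the highest Hgf, stood at 109 CPM in the untreated and 107 in the progressed tumor, but it numbered 1144 untreated and 26 progressed cells. Stroma6 stood at 59.1 and 58.0 CPM and Stroma4 at 36.5 and 34.9 CPM, also near each other. With the shared clusters at equal weight the progressed against untreated ratio was 0.12. The progressed against regressed ratio was -0.64, and without Stroma10 it was -1.17 (-1.47 to -0.87), past the rule. Of the 113 regressed UMIs that this setting left, 112 lay in Stroma9. Stroma3 was higher in the progressed tumor, at 29.0 against 8.89 CPM, from 16 and 6 UMIs, where 6.81% of features passed. In immune cells Hgf stood at 12.2, 16.6 and 8.31 CPM. Neutrophils of the regressed tumor held 67.2 CPM against 11.8 CPM in the untreated (log2 2.51, 1.51 to 3.51), from 20 and 18 UMIs, while the summed neutrophil markers in these cells were 96772 against 232894 CPM.

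**Figure D3:**
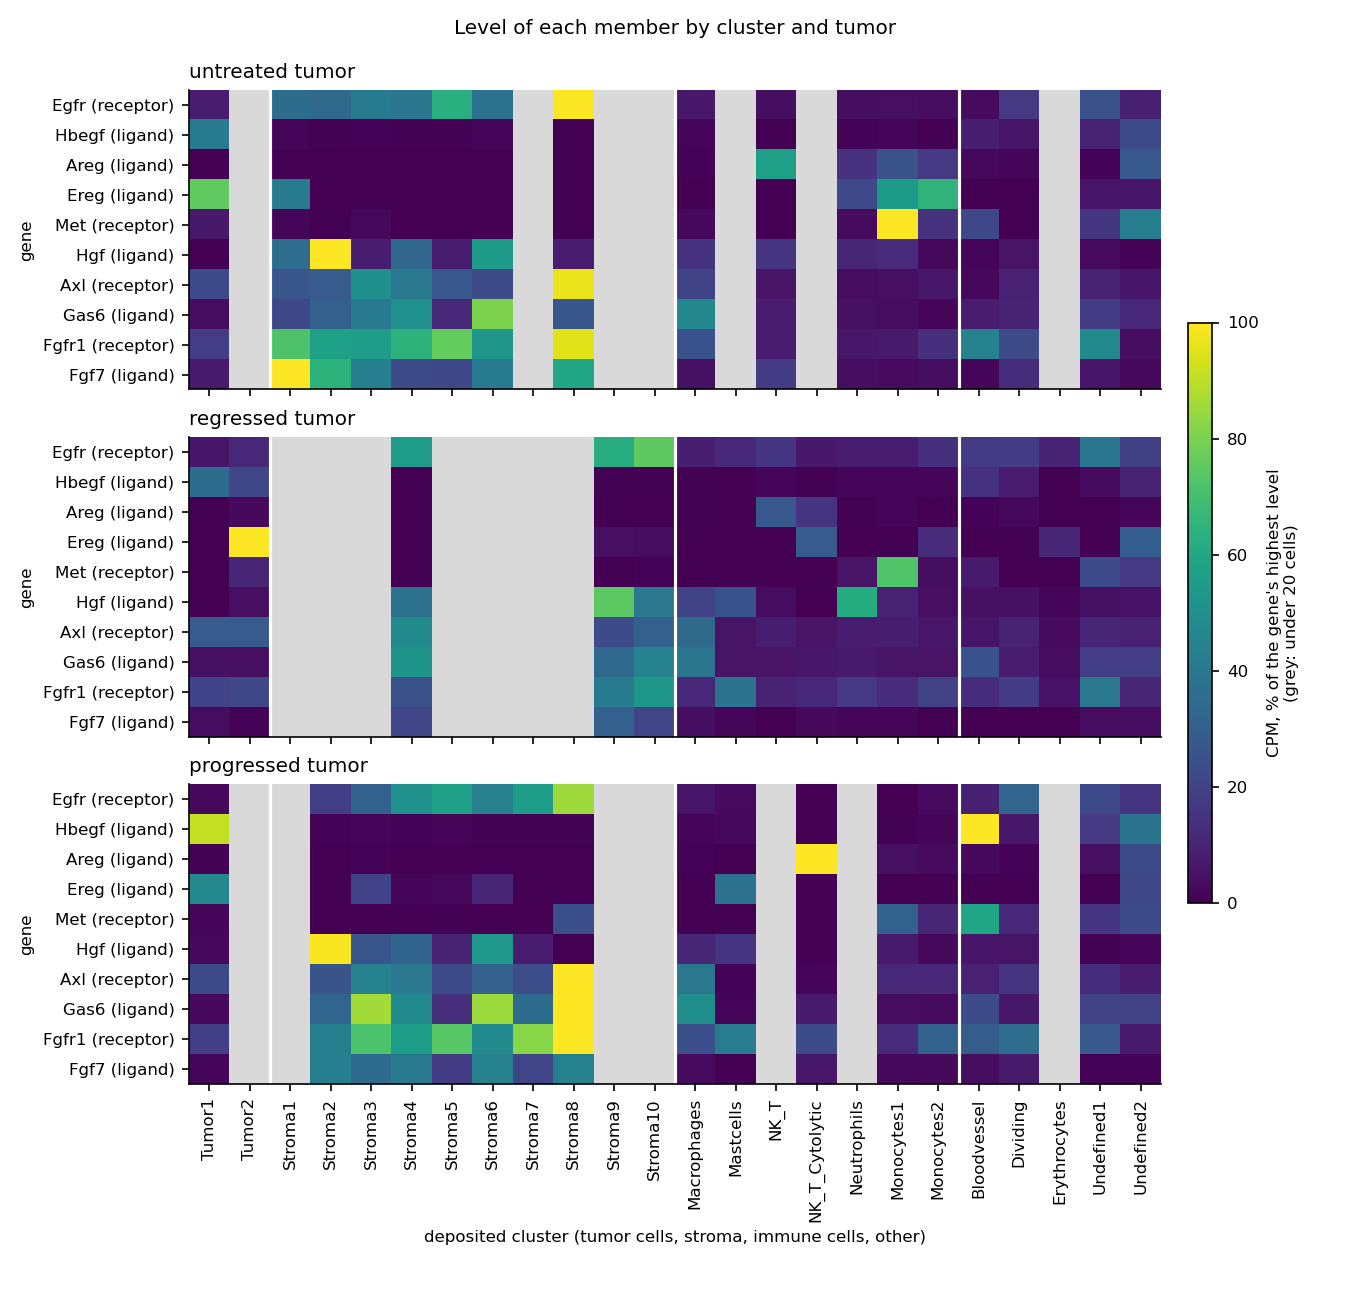
Level of each gene in each cluster and tumor as a percent of that gene's highest CPM, with gray for groups under 20 cells. Egfr, Hgf, Fgfr1 and Fgf7 are highest in stroma clusters, Axl and Gas6 in stroma clusters with a macrophage level beside them, Met in Monocytes1, and Areg in NK/T cells.

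Axl, a receptor that also clears dead cells in macrophages, stood in tumor cells nearer to its stromal level than Egfr and Fgfr1 did. Its gene lies at chr7:25756500-25788924 and held 11071 UMIs. Tumor cells stood at 167 CPM (121 to 224), 218 (182 to 259) and 169 (142 to 199), and all 3 intervals overlapped. The ratio of the progressed to the untreated tumor was log2 0.02 (-0.48 to 0.54), and of the regressed to the untreated 0.39 (-0.12 to 0.92). Tumor-cell Axl was 69.1%, 96.0% and 72.9% of the stromal level, against the 8.20% to 10.3% given above for collagen and Dcn. In NK/T cells Axl was 13.0%, 25.2% and 24.2% of the stromal level. At 1000 UMIs per cell 15.6%, 18.1% and 12.3% of tumor cells held Axl against 2.56%, 3.57% and 2.44% of NK/T cells, and unthinned the shares were 41.7%, 22.9% and 43.8% against 7.50%, 14.7% and 17.1%.

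Stromal Axl was level across the tumors, at 241 CPM (233 to 250), 227 (216 to 239) and 232 (225 to 239). Stroma8 was the highest cluster in the untreated and progressed tumors, at 739 and 762 CPM. Stroma3 followed at 384 and 337 CPM and Stroma4 at 304 and 306 CPM. Each cluster had nearly the same Axl level in both tumors.

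Immune Axl was not level. It stood at 64.6 CPM (57.4 to 72.5), 75.1 (65.5 to 85.8) and 167 (153 to 183), so the progressed tumor was higher than the untreated by log2 1.37 (1.16 to 1.59) and than the regressed by 1.16 (0.92 to 1.39). Macrophages numbered 312, 143 and 339 cells and neutrophils 391, 216 and 4. Without neutrophils the first ratio was 0.98, and with shared clusters at equal weight the ratios were 0.92 and 0.18, all short of the rule. Within macrophages Axl stood at 156 CPM (135 to 180), 264 (206 to 332) and 303 (273 to 335), with both treated tumors above the untreated interval. At 1000 UMIs 13.8%, 25.0% and 25.3% of macrophages held it. Monocytes1 had the same order, at 32.0, 63.1 and 88.4 CPM. Its progressed against untreated ratio passed the rule at log2 1.465, as 7.94% of features did. At 1000 UMIs per cell that call was lost (0.745, -1.80 to 2.80), from 3 and 8 UMIs.

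Gas6, the ligand of Axl at chr8:13465374-13494535, was counted in stroma and macrophages and held the most UMIs of the 10 genes, 19576. Stroma stood at 331 CPM (322 to 341), 429 (413 to 446) and 500 (489 to 510), with no overlap among the intervals. The progressed stroma was 1.51-fold the untreated (log2 0.59, 0.54 to 0.64), short of the rule. Tumor cells stood at 26.5, 43.6 and 23.8 CPM, which was 8.0%, 10.2% and 4.77% of the stromal level and near or below the collagen and Dcn values. The stromal level was 12.5-fold, 9.84-fold and 21.0-fold that of the tumor cells.

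Stroma6 held Gas6 at 817 CPM in the untreated and 864 in the progressed tumor, and it numbered 83 and 1255 cells. Stroma5 held less, at 118 and 135 CPM. Stroma3 was higher in the progressed tumor, at 872 against 419 CPM (log2 1.06, 0.84 to 1.27), which fell to 0.60 at 1000 UMIs per cell. Stroma8 was also higher, at 1015 against 271 CPM (1.91, 1.37 to 2.48), with 81 of 193 progressed UMIs in 1 of its 21 cells and 8.14% of features past the rule. Macrophages stood at 470, 397 and 507 CPM. Immune Gas6 as a whole stood at 155, 87.6 and 229 CPM, and the progressed tumor was higher than the regressed by 1.38 (1.17 to 1.60), but by -0.039 (-0.26 to 0.18) with shared clusters at equal weight.

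In Bloodvessel, Gas6 was higher in both treated tumors, at 257 and 236 CPM against 82.2 CPM (log2 1.64, 1.10 to 2.19, and 1.52, 0.89 to 2.13), the first beside 15.7% of features past the rule. The second ratio was 0.96, short of the rule, when the deepest 5% of cells were left out. Fibroblast markers in this cluster stood at 1258, 3955 and 4489 CPM in the same order of tumors, and their part in the result was not tested. Axl in Bloodvessel was 16.7, 42.0 and 70.0 CPM, from 13, 9 and 11 UMIs.

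Fgfr1, at chr8:25518759-25575718, was a stromal receptor with a lower tumor-cell level that did not differ detectably between tumors. Stroma stood at 207 CPM (200 to 215), 164 (154 to 174) and 204 (197 to 211). Tumor cells stood at 60.6 CPM (34.6 to 98.5), 68.8 (49.4 to 93.3) and 61.9 (46.3 to 81.2), or 29.2%, 41.9% and 30.4% of the stromal level. NK/T cells reached 12.1%, 19.9% and 16.5% of it. At 1000 UMIs per cell 2.22%, 7.23% and 5.81% of tumor cells held Fgfr1, against 5.13%, 2.23% and 4.88% of NK/T cells, and the intervals of the shares overlapped in each tumor. Unthinned they were 27.1%, 9.27% and 21.2%, against 2 of 40 cells, 9.66% and 4.88%. The tumor-cell ratios were log2 0.18 (-0.68 to 1.12) for regressed and 0.03 (-0.80 to 0.94) for progressed against untreated.

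Stroma8 led the clusters for Fgfr1 at 312 and 326 CPM in the untreated and progressed tumors, and its interval overlapped that of the next cluster in both. Immune cells stood at 42.7, 53.0 and 86.7 CPM, and the progressed tumor was higher than the untreated by log2 1.02 (0.75 to 1.30). That ratio fell short of the rule under 6 alternatives, among them 0.12 with shared clusters at equal weight. Macrophages held less in the regressed tumor, at 81.8, 37.1 and 79.8 CPM, where 9.47% of features passed against the untreated. In Bloodvessel the level was 145, 42.0 and 95.5 CPM, with the regressed tumor lower by -1.79 (-2.95 to -0.81), and short of the rule at 1000 UMIs per cell.

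Fgf7, the keratinocyte growth factor at chr2:126034658-126091185, came nearly all from stroma. Stroma stood at 112 CPM (106 to 118), 45.8 (40.7 to 51.3) and 62.2 (58.6 to 66.0), and tumor cells held 3, 2 and 2 UMIs. The regressed stroma was 2.44-fold lower than the untreated (log2 -1.29, -1.47 to -1.11), past the rule, and the progressed stroma 1.80-fold lower (-0.85, -0.96 to -0.73), short of it.

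The clusters differed in Fgf7. Stroma1 held the most Fgf7, at 192 CPM, and was an untreated cluster with 472, 1 and 0 cells. Stroma10, the main regressed cluster, stood at 40.1 CPM. Without Stroma10 the regressed against untreated ratio was -0.83, and over the shared clusters at equal weight it was 0.21 (-0.57 to 0.91), in the opposite direction. Stroma6 stood at 80.2 and 84.7 CPM in the untreated and progressed tumors and Stroma4 at 43.9 and 77.7 CPM. Other shared clusters were lower in the progressed tumor, as the stroma as a whole was, with Stroma2 at 124 and 82.6 CPM, Stroma3 at 82.9 and 67.1, Stroma5 at 41.7 and 34.5 and Stroma8 at 115 and 84.1. None of these 6 cluster ratios passed the rule. Fgfr2, the gene of the known Fgf7 receptor, was higher in the keratinocyte-marker clusters, at 59.6, 59.3 and 72.3 CPM in Undefined2, against 13.1, 12.9 and 17.7 CPM in stroma and 2, 2 and 3 UMIs in tumor cells. Transcript-end reads do not separate its splice forms.

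**Figure D4:**
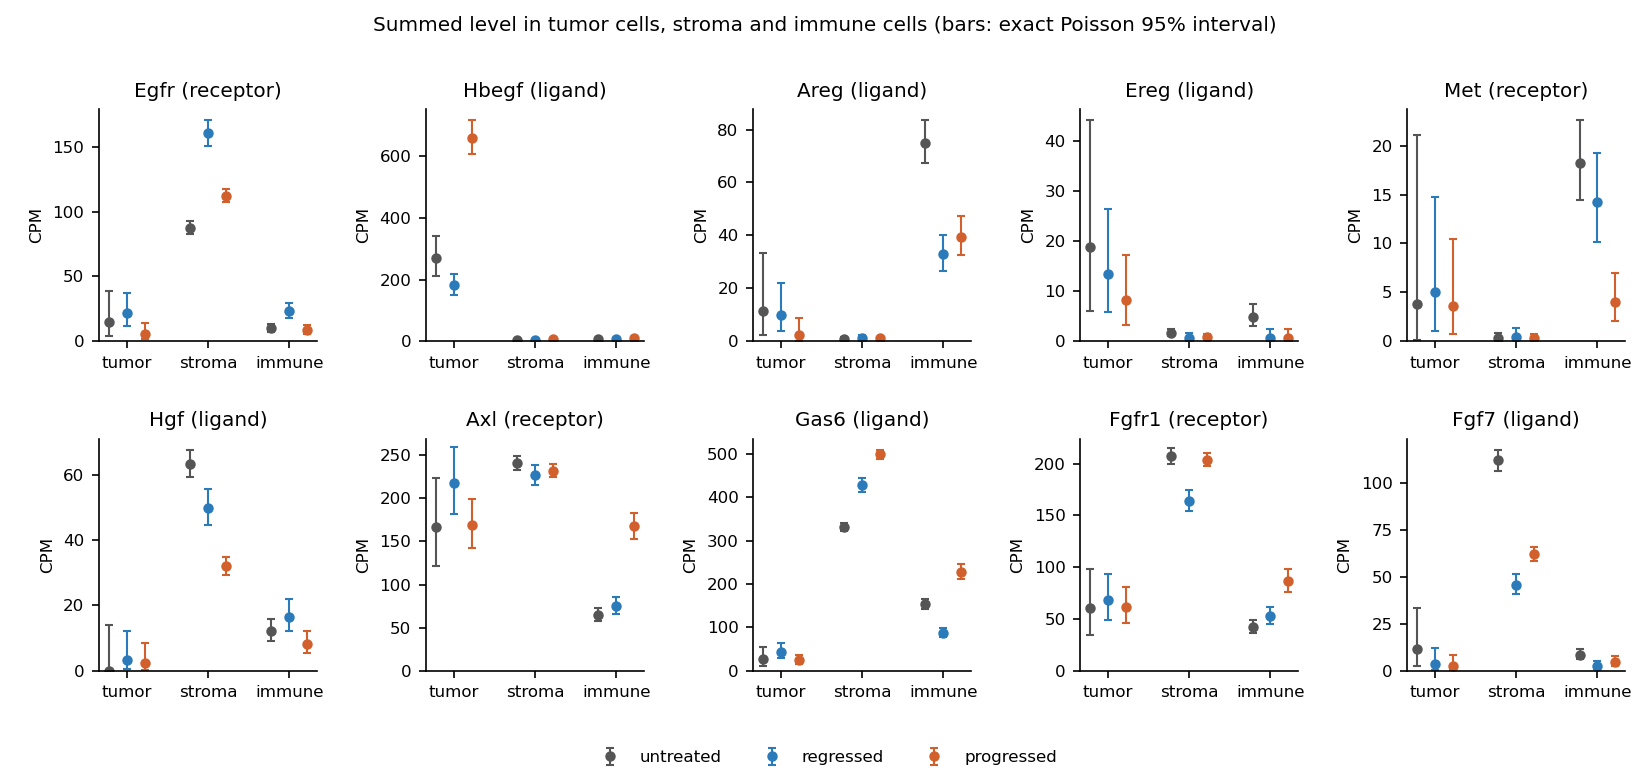
CPM of each of the 10 genes in tumor cells, stroma and immune cells of the 3 tumors, with exact Poisson 95% intervals. Hbegf is at 181 CPM or above in tumor cells of all tumors and at most 10.3 CPM in stroma and immune cells, and Egfr, Hgf, Gas6 and Fgf7 are highest in stroma.

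Set side by side, receptor and ligand of each pair were rarely found in the same tumor cell, and 1 gene of each pair was itself seen in few of them. A UMI of Egfr together with 1 of Hbegf, Areg or Ereg was seen in 1 of 48, 4 of 410 and 4 of 160 tumor cells. Egfr itself was seen in 2, 13 and 5 cells. Axl and Gas6 were seen together in 3, 5 and 10 cells. Gas6 itself was seen in 3, 24 and 18 cells and Axl in 20, 94 and 70. Fgfr1 and Fgf7 were seen together in 2, 1 and 1 cells, with Fgf7 itself in 2 cells of each tumor. Met and Hgf were seen together in 0 cells of each tumor, which by the same limit of 3 cells allows up to 6.25%, 0.732% and 1.88% of the cells. None of the 4 receptors was seen in 18 of 48, 277 of 410 and 73 of 160 tumor cells, and at 1000 UMIs per cell in 82.2%, 72.9% and 81.3%. These shares depend on depth, and a cell without a UMI may hold the RNA.

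Counted over the 10 genes, few passed the fold rule in tumor cells or stroma. In tumor cells 0 of 6 members with enough UMIs passed between the regressed and untreated tumors, where 14.4% of all features did. Between the progressed and untreated tumors 1 of 5 passed (Hbegf), against 8.78% of features, and between the progressed and regressed tumors 2 of 6 (Hbegf higher, Egfr lower), against 14.5%. In stroma the counts in the same order were 1 of 9 (Fgf7), 0 of 10 and 0 of 9, against 20.3%, 8.86% and 20.4%. In immune cells they were 4 of 10 (Egfr higher, and Areg, Ereg and Fgf7 lower), 4 of 10 (Axl and Fgfr1 higher, and Ereg and Met lower) and 5 of 9 (Axl and Gas6 higher, and Egfr, Met and Hgf lower), against 27.9%, 14.2% and 19.1%. Several of these immune calls were lost under an alternative besides those given above. Hgf passed narrowly and fell short under 7 alternatives, from -0.38 without neutrophils to -0.99 in cells with at least 1000 UMIs. With thinned cells the interval reached no difference for Egfr in the progressed against the regressed tumor (-3.24 to 0.08) and for Fgf7 in the regressed against the untreated (-3.85 to 0.60). Immune Egfr in the regressed tumor, at 23.2 against 10.2 CPM in the untreated, was log2 1.18 in CPM and 0.59 with TMM scaling. The median of all features in immune cells was itself shifted by 0.54 between the regressed and untreated tumors, by 0.25 between the progressed and untreated and by -0.30 between the progressed and regressed. In stroma the shifts were 0.16, -0.06 and -0.23, and in tumor cells 0.13, 0.02 and -0.11. With TMM scaling the regressed against untreated ratios in immune cells turned from 0.22 to -0.37 for Axl and from 0.31 to -0.28 for Fgfr1.

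**Figure D5:**
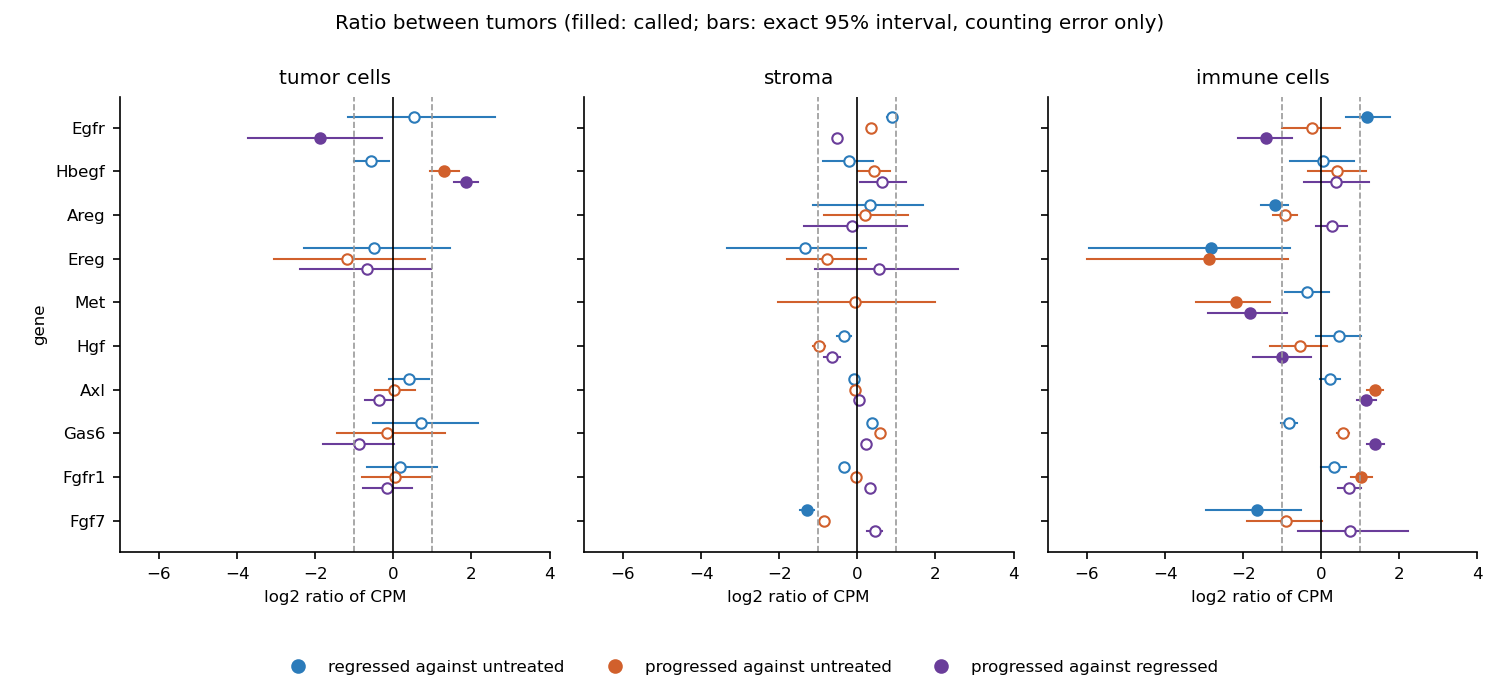
Log2 ratio of CPM between tumors for each gene in tumor cells, stroma and immune cells, with exact 95% intervals as bars. Filled points passed the fold rule and dashed lines mark 2-fold, and the filled points in tumor cells are Hbegf in both comparisons with the progressed tumor and Egfr against the regressed one.

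The other genes of these pathways, 42 relatives, activators and regulators, passed the fold rule in tumor cells at shares near those of all features. There 3 of the 18 with enough UMIs were higher in the regressed tumor against the untreated one and 0 lower, 1 of 17 was higher in the progressed than in the untreated and 0 lower, and 0 of 19 were higher in the progressed than in the regressed and 2 lower, where 14.4%, 8.78% and 14.5% of all features passed in either direction. Their medians were 0.36, -0.14 and -0.49 on the log2 scale, beside 0.13, 0.02 and -0.11 over all features. In stroma 5 of 32 were higher and 3 lower, 1 of 32 higher and 2 lower, and 2 of 33 higher and 8 lower, with medians of 0.10, -0.07 and -0.28, where 20.3%, 8.86% and 20.4% of features passed. In immune cells 8 of 28 were higher and 4 lower, 5 of 27 higher and 1 lower, and 2 of 26 higher and 2 lower. Of all features in immune cells, 27.9%, 14.2% and 19.1% passed in either direction. The medians of the pathway genes there were 0.58, 0.44 and -0.10, beside 0.54, 0.25 and -0.30 over all features.

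Among relatives of Egfr, Erbb2, the ligandless partner receptor, stood at 11.4, 52.0 and 32.2 CPM in tumor cells, and the regressed tumor was higher than the untreated by log2 2.19 (0.51 to 4.55), from 31 and 3 UMIs. Errfi1, a feedback inhibitor of Egfr, stood at 30.3, 72.1 and 77.4 CPM in tumor cells and was higher in both treated tumors, by 1.25 (0.15 to 2.55) and 1.35 (0.29 to 2.62). Btc, a further EGF family ligand, was seen in tumor cells only in the regressed tumor, with 16 UMIs (26.8 CPM). In stroma Btc was lowest there, with 33, 1 and 34 UMIs. Erbb3, a receptor of neuregulins, held 4, 11 and 2 UMIs in stroma, highest in the regressed tumor. Keratinocyte markers in tumor cells, at 136, 829 and 688 CPM, were also higher in both treated tumors, and their part in the Erbb2, Errfi1 and Btc values was not tested.

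Among genes that process Hgf, Plat, a plasminogen activator, stood at 167, 326 and 151 CPM in tumor cells, and the progressed tumor was lower than the regressed by log2 -1.11 (-1.44 to -0.78). Plau, the urokinase gene, stood at 25.9, 35.5 and 17.6 CPM in stroma, lower in the progressed than in the regressed tumor by -1.01. Spint2, an inhibitor of the proteases that activate Hgf and a gene of epithelial cells, stood at 2.2, 22.3 and 3.92 CPM in stroma. Keratinocyte markers in stroma stood at 177, 879 and 244 CPM in the same order, and their part in the result was not tested.

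In stroma the remaining genes that passed the rule were less abundant. Fgf10, a ligand of the same Fgfr2 form as Fgf7, stood at 8.95, 4.83 and 1.65 CPM, and the progressed tumor was lower than the untreated by log2 -2.44 (-3.08 to -1.85). Fgfrl1, an FGF receptor without a kinase domain, was lowest in the regressed tumor, at 12.3, 3.74 and 11.9 CPM. Sos1, an exchange factor that links receptors to Ras, stood at 15.1, 24.0 and 10.6 CPM. Tyro3, a relative of Axl, stood at 4.69, 2.33 and 3.13 CPM, and Fgfr3 at 3.84, 4.20 and 1.99 CPM.

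Across 53 groups of cells, each 1 cluster in 1 tumor with at least 20 cells, the 2 features most like each member were found by Pearson's r of log2(CPM + 10) among 12614 features with at least 200 UMIs. The groups share libraries and depth, so r is a description. Fgf7 was most like C1s1 (r 0.926) and Bicc1 (0.906), Egfr like Gpc4 (0.849) and Aspn (0.845), Gas6 like Rnase4 (0.825) and Nbl1 (0.765), Fgfr1 like Nenf (0.821) and Aebp1 (0.788), and Hgf like Gdf10 (0.766) and Tspan11 (0.762). Hbegf was most like Limch1 (0.817) and Tspan15 (0.805), Axl like Adamtsl5 (0.813) and Kifap3 (0.798), and Areg like Samd10 (0.779) and Tmem154 (0.765). Met, with Serpinb10 (0.654) and Uck2 (0.614), and Ereg, with Sort1 (0.565) and Gpr137b (0.516), had no feature as close.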

How the data were processed

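Per the labels and the study's methods, transcript ends of single cells from 3 tumors, 1 per group, were sequenced in droplets, and the authors aligned reads to GRCm38 with GSNAP, counted UMIs per gene and named clusters with Seurat 2.2.0. The values used are the deposited counts of UMIs per Entrez gene and cell. The deposited cell table gives the tumor and cluster of each of 12670 cells, which are labels, and total counts, which the sums of the tables exceed by 5.02%. The tables' own sums were used. Symbols were matched for 31049 features through RefSeq GRCm38.p6, and 5479 IDs with 3.74% of UMIs stayed in the totals under their numbers. The members and the 42 pathway genes were chosen with earlier results of these data known. The genes named are the 10 members, the 12 pathway genes with the most UMIs among those past the fold rule in tumor cells or stroma, and the 2 features most like each member. Where a group held no UMI of a gene, a floor of 3 over the group was used, which makes the ratio a bound. Shares of cells carry exact Clopper-Pearson intervals, a share of 0 is given the limit that 3 cells would set, and ratios exact conditional binomial ones. Cells were thinned to 1000 UMIs with a fixed seed, and shallower cells were left out, which kept 45 of 48, 166 of 410 and 155 of 160 tumor cells. No doublet treatment is given in the sources used here and no caller was run, and the alternative that drops the deepest 5% of cells bears on them. Other scalings were TMM (edgeR 4.0.16) and median of ratios (DESeq2 1.42.0), used for factors only, in R 4.3.3. Python 3.11.15, numpy 2.4.6, scipy 1.17.1 and pandas 2.3.3 did the rest. Comparisons within clusters and the spread over cells were added after seeing the data. The fold rule and the ratio intervals were tested on simulated counts with counting error only and changes larger than 2-fold. That test did not cover genes whose UMIs lie in few cells. Bloodvessel, Dividing, Erythrocytes, MitoHigh and the undefined clusters lie outside the 3 compartments.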

Additional observations from a re-analysis of the deposited data

Results flagged for a closer look

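Areg moved in opposite directions between clusters in the progressed against the untreated tumor. It was higher in Undefined1, by log2 2.36, and lower in Monocytes1, by -2.65, and in Monocytes2, by -2.47. Fgfr1 did so in the regressed against the untreated tumor, with 1.35 in neutrophils and 1.66 in Undefined2 against -1.79 in Bloodvessel and -1.14 in macrophages. With 1 tumor per group the differences between these clusters were not tested. The neutrophil value of Fgfr1 was 0.52 with TMM scaling.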

How the results depend on the processing

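With 1 tumor per group no replicate could be left out and no paired analysis was possible. The counts of members past the fold rule changed by over 1.5 times as follows. In tumor cells the count for regressed against untreated went from 0 to 1 and for progressed against untreated from 1 to 0 when the deepest 5% of cells were left out, and for progressed against regressed from 2 to 1 with cells thinned to 1000 UMIs and to 1 with Tumor1 alone. In stroma regressed against untreated went from 1 to 2 with TMM scaling, to 0 without Stroma10 and to 0 with shared clusters at equal weight, progressed against untreated from 0 to 2 with shared clusters, and progressed against regressed from 0 to 1 without Stroma10. In immune cells progressed against untreated went from 4 to 2 with thinned cells and to 2 without Monocytes2, and progressed against regressed from 5 to 3 with thinned cells and to 2 with shared clusters. The other 71 recomputed counts stayed within 1.5 times. Ratios past the rule changed direction in 3 cases. With shared clusters stromal Fgf7 was 0.21 for regressed against untreated and immune Gas6 -0.039 for progressed against regressed, and with thinned cells Hbegf in Stroma5 was -0.020 for progressed against untreated. Of the other recomputed ratios, past the rule or not, 540 in compartments and 1577 in clusters stayed within the 95% interval of the reported value and 127 and 62 left it, and 171 had under 10 UMIs and no value. Background counts stayed within 1.5 times under all 18 recomputed settings. Depth limits Met, Ereg, Areg, Hgf and Fgf7 in tumor cells, which held at most 8 UMIs each per tumor, and intervals are too narrow for genes whose UMIs lie in few cells.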
